A study of Mus musculus with 2 samples.

Results

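RNA of 37 genes that mark blood and lymph vessels was compared between muscle stem cells of wild-type (WT) and double-knockout (dKO) mice. The genes were taken by symbol through their Entrez gene IDs, and the transcript rows of a gene were summed. All 37 had rows in the deposited read count table, among 24532 gene IDs in all. They were placed by their known vessel type as pan-endothelial (13 genes), capillary (7), arterial (5), venous (6) or lymphatic (6). All 37 passed the minimum of 10 counts in the higher library, and the least covered, Bmx, had 70 counts there.

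Both groups were male mice on the C57BL/6 background, with 1 RNA-seq library each. Whether a library pooled several mice is not stated in the labels. The dKO genotype combines Pax7-CreER (a Cre recombinase that tamoxifen switches on in Pax7-expressing cells), Esr2–/– (loss of estrogen receptor beta) and a Cre-deletable gene that is not reported here. Esr2–/– is written as a plain loss of both copies and not as a Cre-deletable allele. Per the labels' protocols, tamoxifen at 20 mg/mL was given by mouth on 5 consecutive days to mice aged 3 months, and the sample titles add 6M without saying what it stands for. Whether the WT mice carried the Cre is not stated. Cells were sorted from digested limb muscle as Vcam1-positive and negative for Sca1, CD31 and CD45. CD31 is the product of Pecam1, so the gate was set against the cells that the 37 genes mark.

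Endothelial cells line every vessel and hold together through junction proteins such as VE-cadherin, claudin-5 and CD31. They take up growth and survival signals through VEGF and TIE receptors, and ETS factors such as ERG, often with FOX and SOX factors, keep their genes on. In skeletal muscle most of them form the capillary net around the fibres, which moves fatty acids and water, while arterial cells are coupled by connexins, venules recruit leukocytes through selectins, and lymphatic cells depend on PROX1 and VEGFR3. Several of the 37 genes are also known in other cells of muscle. Of them, 13 were marked in this way (Cd36, Fabp4, Rgcc, Aqp1, Meox2, Gja4, Fbln5, Nr2f2, Lrg1, Prox1, Lyve1, Pdpn and Reln), and the other 24 were not.

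Promoter letters are shown because ETS, FOX and SOX factors are the known regulators of this gene group. The 250 bases before the start site were taken from a RefSeq promoter table on GRCm38.p6, which matched 27 of the 37 genes with 33 start sites. The motifs were CAGGAAG (ETS), ACAGGAA (the core of a FOX and ETS composite, which overlaps the first) and AACAAT (SOX), searched on both strands. CAGGAAG was in 24.2% of the 33 promoters and in 10.8% of all 32851 promoters of that table. ACAGGAA was in 21.2% and 7.20%, and AACAAT in 12.1% and 9.42%. None of the 5 capillary or 6 lymphatic promoters held either ETS motif, against 4 of 12 pan-endothelial and 3 of 5 venous promoters for CAGGAAG. The median GC content was 56.4% for the 33 promoters and 52.4% for all. Below are the 4 pan-endothelial genes whose windows held the most matches, which the capitals mark. They are Emcn (chr3:137340828-137341077, plus strand), Egfl7 (chr2:26580833-26581082, plus strand), Erg (chr16:95459349-95459598, minus strand) and Tie1 (chr4:118489850-118490099, minus strand), each written 5′ to 3′ on the strand of the gene.
Emcn: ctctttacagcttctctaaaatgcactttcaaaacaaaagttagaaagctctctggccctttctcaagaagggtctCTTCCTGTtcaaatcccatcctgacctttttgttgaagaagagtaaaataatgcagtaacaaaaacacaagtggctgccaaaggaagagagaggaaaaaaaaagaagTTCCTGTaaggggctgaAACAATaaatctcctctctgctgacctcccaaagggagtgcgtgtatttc
Egfl7: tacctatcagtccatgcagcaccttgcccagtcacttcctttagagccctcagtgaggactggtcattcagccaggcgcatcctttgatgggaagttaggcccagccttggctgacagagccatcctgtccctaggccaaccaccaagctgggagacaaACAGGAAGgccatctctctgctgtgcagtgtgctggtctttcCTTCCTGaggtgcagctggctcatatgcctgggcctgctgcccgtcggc
Erg: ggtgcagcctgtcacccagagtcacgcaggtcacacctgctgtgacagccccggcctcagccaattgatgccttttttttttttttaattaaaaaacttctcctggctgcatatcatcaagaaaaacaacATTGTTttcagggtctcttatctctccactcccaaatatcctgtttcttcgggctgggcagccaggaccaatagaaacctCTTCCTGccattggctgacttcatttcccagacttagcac
Tie1: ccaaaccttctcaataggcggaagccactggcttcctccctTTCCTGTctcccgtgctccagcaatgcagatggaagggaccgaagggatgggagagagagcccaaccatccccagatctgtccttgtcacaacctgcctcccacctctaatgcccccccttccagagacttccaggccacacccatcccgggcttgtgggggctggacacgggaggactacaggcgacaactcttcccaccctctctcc

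Reads assigned to transcripts numbered 36636680 in WT and 43699831 in dKO. All 12 muscle stem cell markers of a list chosen with earlier results known were measured. Each had at least 61.4 counts per mega-read (CPM) in WT and 25.3 CPM in dKO. Pax7, the defining transcription factor, had 558 CPM in WT and 315 CPM in dKO. The 37 vessel genes together took 0.237% of reads in WT and 0.129% in dKO. With 1 library per group no test was possible, and every difference below is one between these 2 libraries, with no replicate check. A log2 ratio is that of dKO CPM + 1 over WT CPM + 1, so it understates low genes. A fold is the ratio of CPM without that addition, with an exact 95% interval that covers counting error only.

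Vessel genes were lower in the dKO library in 36 of 37 cases, where 52.4% of all measured genes had a log2 ratio below 0. With a log2 ratio of 1 or more in either direction called 2-fold apart, 28 were lower, 1 was higher and 8 were neither. Of all 14885 measured genes, 4.30% were lower and 1.92% were higher by this rule. The median log2 ratio was −1.47 for the 37 genes and −0.02 for all measured genes. Which cells held the RNA of these genes was not tested. Fewer endothelial cells in the sample and less RNA per endothelial cell cannot be told apart in such bulk libraries either. Library totals alone gave 29 lower and 0 higher among the 37 (6.99% and 0.873% of all genes). With a trend on abundance and transcript length removed, 23 were lower and 0 higher (2.88% and 2.06% of all genes). By a 4-fold rule, 5 were lower and 0 higher (0.376% and 0.168% of all genes).

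**Figure D1:**
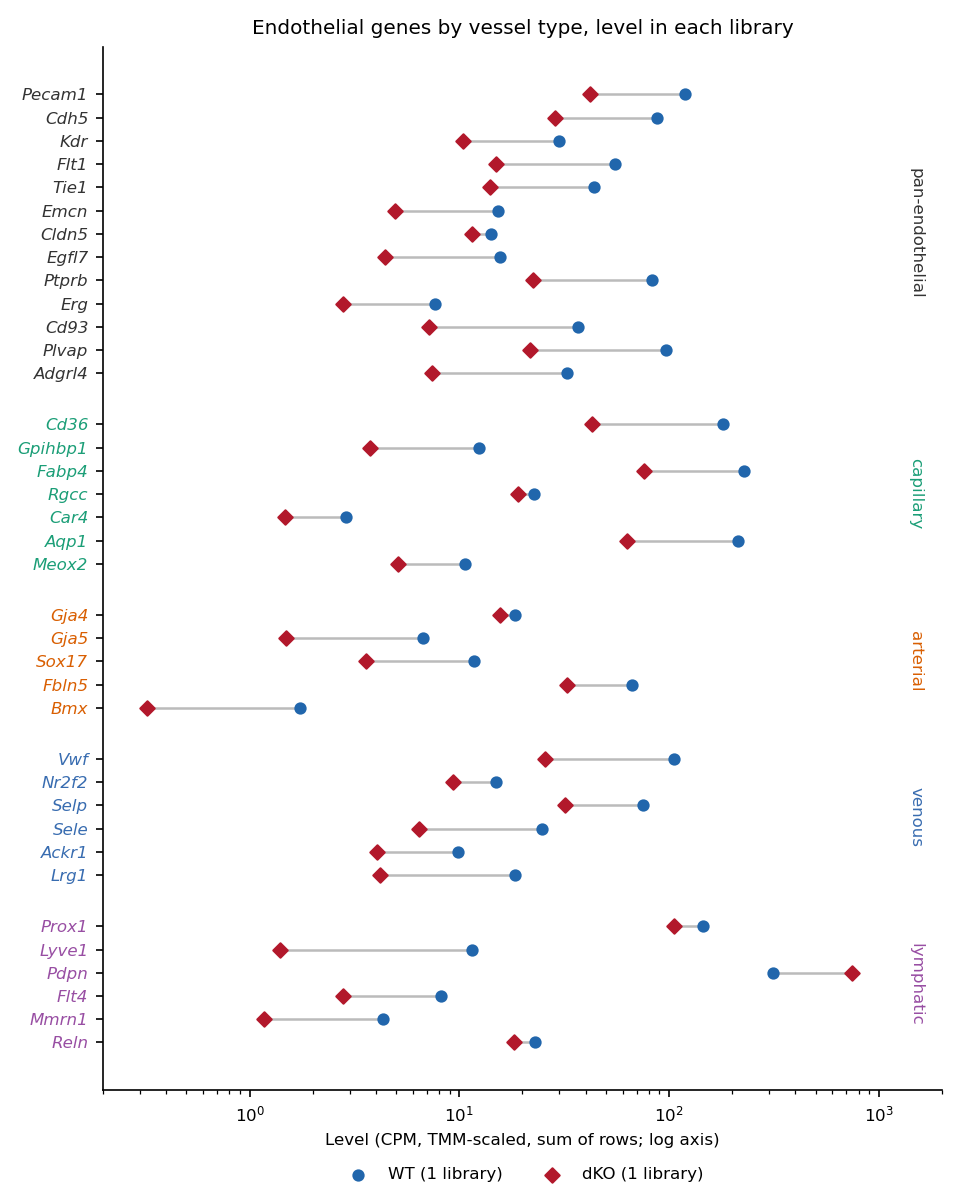
Level of each of the 37 genes in CPM on a log axis, with 1 circle for the WT and 1 diamond for the dKO library, grouped by vessel type. The dKO diamond lies left of the WT circle in 36 genes and right of it in Pdpn alone.

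Pan-endothelial genes had 12 of 13 members lower by 2-fold, and their median log2 ratio was −1.59. Among the junction genes, Pecam1 (CD31, on chromosome 11, 106654213 to 106715281 on GRCm38) had 4745 counts in WT and 1673 in dKO, 2.84-fold lower (2.68 to 3.00). Cdh5, the VE-cadherin gene, had 3519 and 1142 counts and was 3.08-fold lower (2.88 to 3.30). Cldn5, which encodes the tight junction protein claudin-5, was the exception. It had 569 counts in WT and 460 in dKO, only 1.24-fold lower (1.09 to 1.40), and its interval lay below those of the other 12 pan-endothelial genes.

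Genes of the receptors for vascular growth factors among the 13 were lower by 2-fold too. Kdr (VEGFR2, the main signalling receptor for VEGF) went from 1201 counts in WT to 416 in dKO and was 2.89-fold lower (2.58 to 3.24). Flt1 (VEGFR1, which also acts as a VEGF trap) had 2218 and 600 counts and was 3.70-fold lower (3.38 to 4.05). Tie1, a co-receptor of the angiopoietin system, had 1754 and 558 counts and was 3.14-fold lower (2.86 to 3.47). The intervals of Kdr and Flt1 did not overlap, while that of Tie1 overlapped both. The angiopoietin receptor gene Tek (TIE2) is not among the 37 and was picked with its values known. It went from 5679 counts in WT to 4762 in dKO, 1.19-fold lower (1.15 to 1.24). Ptprb (VE-PTP, the phosphatase that restrains TIE2 and VE-cadherin signalling) had 3327 and 899 counts and was 3.70-fold lower (3.44 to 3.99).

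The largest folds of the pan-endothelial group were those of Cd93, Plvap and Adgrl4. Cd93, a C-type lectin-like receptor, went from 1467 counts in WT to 287 in dKO, 5.11-fold lower (4.50 to 5.82). Plvap, the diaphragm protein of caveolae and fenestrae, had 3862 and 870 counts and was 4.44-fold lower (4.13 to 4.79). Adgrl4 (ELTD1) had 1298 and 297 counts and was 4.37-fold lower (3.85 to 4.98). These were 3 genes with a single row each. Emcn, which encodes the sialomucin endomucin, had 613 and 198 counts and was 3.10-fold lower (2.63 to 3.65). Egfl7, a secreted endothelial protein gene that hosts miR-126, had 628 and 178 counts and was 3.53-fold lower (2.98 to 4.19). Erg, the ETS factor of endothelial identity, was the least abundant of the group, with 307 and 112 counts, and was 2.74-fold lower (2.20 to 3.44).

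Capillary genes had 4 of 7 members lower by 2-fold and 0 higher, and their median log2 ratio was −1.50. The 4 were the genes of lipid and water transport. Fabp4, a fatty acid-binding protein, went from 9094 counts in WT to 3027 in dKO and was 3.01-fold lower (2.88 to 3.13). Aqp1, a water channel, had 8532 and 2532 counts and was 3.37-fold lower (3.22 to 3.53). Cd36, a fatty acid transporter, had 7244 and 1723 counts and was 4.21-fold lower (3.99 to 4.44). Among the pan-endothelial, capillary, arterial and venous members, these 3 had the most counts in each library. Gpihbp1, which anchors lipoprotein lipase on the capillary wall, had 498 and 150 counts and was 3.32-fold lower (2.76 to 4.01).

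Fat cells also make Fabp4 and Cd36, and their part in these differences was not tested. Of the 6 adipocyte markers, Adipoq, Lep and Cidec had 0 counts in both libraries, Plin1 had 0 in WT and 42 in dKO, and Retn had 4 and 6. A count of 0 allows up to 3 counts, or 0.0750 CPM, in either library. Plin4, a perilipin gene and the abundant member of that list, was lower along with Fabp4 and Cd36, with 1608 and 455 counts (3.54-fold, 3.18 to 3.93).

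The remaining capillary genes stayed short of the 2-fold line. Car4, a carbonic anhydrase on the capillary surface, had 115 and 59 counts, 1.95-fold lower with a wide interval (1.41 to 2.72). Meox2, a homeobox gene of capillary endothelium that mesenchymal and myogenic cells also use, had 428 and 204 counts. Its fold was 2.10 (1.77 to 2.49) and its log2 ratio with the added CPM −0.94. Rgcc, a cell cycle regulator known in many cells, had 913 and 765 counts and was 1.19-fold lower (1.08 to 1.32).

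Arterial genes had 4 of 5 members lower by 2-fold and 0 higher, with a median log2 ratio of −1.05. That median is the value of Bmx, a low gene whose ratio the added CPM shrinks. The arterial median was −1.68 with 0.1 CPM added, −0.85 with 5 CPM added and −0.94 with the trend on abundance and length removed. The median fold of the 5 genes with nothing added was 3.27. With the trend removed, Bmx (−0.80) and Fbln5 (−0.94) fell short of the 2-fold line. With 5 CPM added, Bmx, Fbln5, Gja5 and Sox17 all did. Both connexin genes of arterial endothelium are in the group, and they differed. Gja5 (connexin 40) went from 270 counts in WT to 60 in dKO and was 4.50-fold lower (3.39 to 6.06). Gja4 (connexin 37), which smooth muscle and pericytes can also express, had 735 and 624 counts and was 1.18-fold lower (1.06 to 1.31). Sox17, a SOX factor of arterial identity, had 470 and 144 counts and was 3.27-fold lower (2.70 to 3.96). Bmx, a TEC-family kinase gene, had 70 and 13 counts, and its fold of 5.39 had the widest interval of the 37 genes (2.95 to 10.6). Fbln5, an elastic fibre gene that fibroblasts also express, had 2663 and 1304 counts, just past the line at 2.04-fold lower (1.91 to 2.18). It carried 63.3% of the WT counts of the arterial group, so the summed arterial level mainly shows this gene.

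Venous genes had 5 of 6 members lower by 2-fold and 0 higher, with a median log2 ratio of −1.50. Vwf, the von Willebrand factor gene, went from 4243 counts in WT to 1028 in dKO and was 4.13-fold lower (3.86 to 4.42). The neighbouring selectin genes Selp and Sele, which let leukocytes roll on venules, lie 56777 bases apart on chromosome 1. Selp had 2998 and 1277 counts and was 2.35-fold lower (2.20 to 2.51), and Sele had 990 and 257 counts and was 3.85-fold lower (3.36 to 4.44). Their intervals did not overlap. Ackr1, the chemokine receptor of venules, had 395 and 162 counts and was 2.44-fold lower (2.03 to 2.95). On the annotation it overlaps Cadm3 (983 and 495 counts), and reads of the 2 genes cannot be told apart where the counting rule is not given. Lrg1, a secreted glycoprotein gene that neutrophils also express, had 735 and 167 counts and was 4.40-fold lower (3.72 to 5.24). Nr2f2 (COUP-TFII), the factor of venous identity that many mesenchymal cells share, had 598 and 375 counts and was 1.60-fold lower (1.40 to 1.82).

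Lymphatic genes were divided, with 3 of 6 lower by 2-fold and 1 higher, and a median log2 ratio of −0.86. Flt4 (VEGFR3, the receptor for the lymphatic growth factor VEGF-C) went from 326 counts in WT to 112 in dKO and was 2.91-fold lower (2.34 to 3.64). Mmrn1, a multimerin gene, had 173 and 47 counts and was 3.68-fold lower (2.65 to 5.20). With the trend on abundance and length removed, Flt4 and Mmrn1 fell short of the 2-fold line, at log2 ratios of −0.89 and −0.94. Lyve1, a hyaluronan receptor of lymphatic endothelium and of tissue macrophages, had 458 and 56 counts. It was 8.18-fold lower (6.19 to 11.0), the largest fold of the 37 genes. Macrophage genes were lower in the dKO library too, with Cd163 at 318 and 19 counts and Mrc1 at 432 and 104, and their part in the Lyve1 difference was not tested.

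Pdpn, which encodes podoplanin, a surface glycoprotein of lymphatic endothelium and of fibroblasts, ran the other way. It had 12545 counts in WT and 29802 in dKO, 2.37-fold higher (2.33 to 2.43), and it was the only one of the 37 genes above 0. Its level per length was 171 RPKM (reads per kilobase and mega-read of library size) in WT and 406 RPKM in dKO, where Flt4 had 1.40 and 0.479 RPKM. Which cells held the Pdpn RNA was not tested. The log2 ratio of Pdpn was 1.25, and it fell short of the 2-fold line at 0.99 under library totals and at 0.76 with the trend on abundance and length removed.

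Prox1, the master factor of lymphatic identity that is also known in muscle lineage cells, stood close to level. It had 5776 counts in WT and 4221 in dKO, 1.37-fold lower (1.31 to 1.43), and its level per length was 34.9 and 25.5 RPKM. Reln, a secreted glycoprotein gene, had 920 and 729 counts and was 1.26-fold lower (1.14 to 1.39). Its log2 ratio of −0.32 turned to 0.05 when the trend on abundance and length was removed. Without Pdpn, a choice made after its value was seen, the lymphatic median was −1.27.

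**Figure D2:**
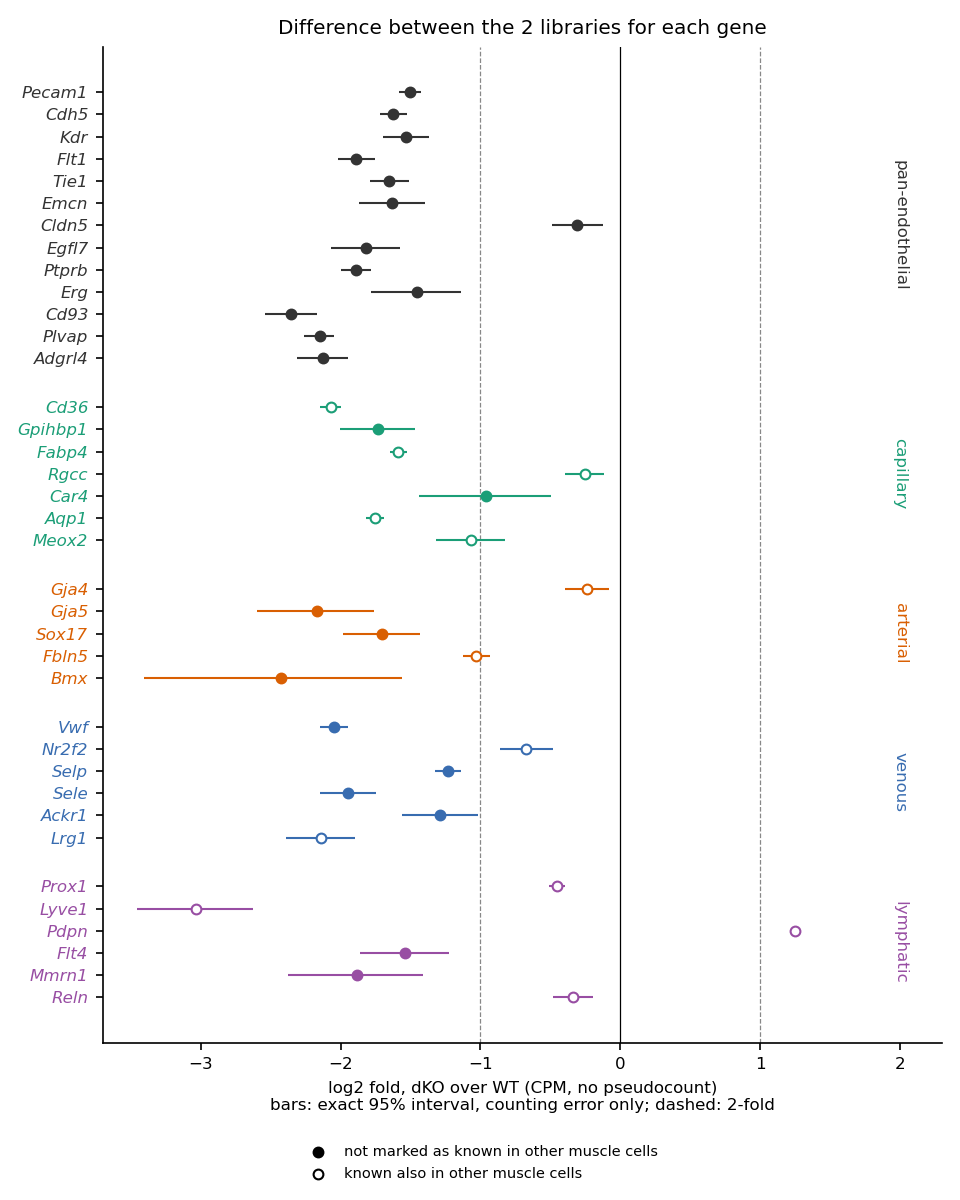
Log2 fold of dKO over WT for each gene, from CPM with no pseudocount, with exact 95% intervals that cover counting error only. Filled points are the 24 genes not marked as known in other muscle cells, which are all left of 0, with Cldn5 close to it. Open points are the 13 marked ones. Among them Pdpn is right of the upper 2-fold line, and Prox1, Gja4, Rgcc and Reln lie left of 0 but nearest to it.

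The genes marked as known in other muscle cells and the rest were also counted apart. The marks were set with earlier results of these data known. The lack of a mark does not show that a gene is confined to endothelial cells. Of the 24 unmarked genes 22 were lower by 2-fold and 0 higher, and of the 13 marked ones 6 were lower and 1 higher. The 2 unmarked genes short of the line were Cldn5 and Car4. Counts summed over the 24 genes were 36056 in WT and 10999 in dKO, 3.28-fold lower (3.21 to 3.35). By vessel type, the summed counts of the unmarked genes were 3.32-fold lower for the pan-endothelial (3.23 to 3.40), 2.93-fold for the capillary (2.50 to 3.45), 3.73-fold for the arterial (3.21 to 4.36), 3.17-fold for the venous (3.03 to 3.31) and 3.14-fold for the lymphatic genes (2.62 to 3.78). All 5 intervals overlapped. They rest on 13, 2, 3, 4 and 2 genes, and overlap does not show that the vessel types were alike.

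Single genes spread more widely than these sums. Of the 24 unmarked genes, 10 had an interval that held the summed fold of 3.28. Another 8 were lower by more (Flt1, Ptprb, Cd93, Plvap, Adgrl4, Gja5, Vwf and Sele), and 6 were lower by less (Pecam1, Kdr, Cldn5, Car4, Selp and Ackr1). Each of these sets held genes of several vessel types. With all members, the summed counts were 3.17-fold lower for the capillary, 3.05-fold for the venous and 1.96-fold for the arterial genes. The lymphatic sum was 1.73-fold higher (1.70 to 1.76). Pdpn held 62.1% of its counts in WT and 85.2% in dKO, and without Pdpn the sum was 1.48-fold lower.

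Per kilobase of transcript, the order of the levels changed between the libraries. On the RPKM scale, the WT library was led by Fabp4 (355), Pdpn (171), Aqp1 (77.3), Cd36 (52.2) and Plvap (47.9). The dKO library was led by Pdpn (406), Fabp4 (118), Prox1 (25.5), Aqp1 (22.9) and Rgcc (20.9). Cldn5 moved from rank 19 to 11 and Gja4 from 17 to 10 among the 37 genes. Vwf moved the other way, from 13 to 20, and Lrg1 from 12 to 19. Bmx had the last rank in both, with 0.582 and 0.108 RPKM.

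For 12 of the 37 genes the value sums several transcript rows, and the rows did not always move together. Of the 25 genes with a single row 19 were lower by 2-fold, so the pattern did not need the sums. With the most abundant row in place of the sum, the same 28 genes were lower by 2-fold and 1 was higher (6.30% and 3.19% of all genes by that rule). In Pecam1, the row of 3333 bases went from 1734 to 248 counts, the rows of 3253 and 3310 bases from 1355 to 645 and from 1623 to 604, and the row of 3030 bases from 33 to 176. In Erg, a row of 3111 bases had 258 counts in WT and 0 in dKO, while both rows of 3180 bases had 0 in WT and 23 and 36 in dKO. The last Erg row with reads, of 3273 bases, had 49 and 53 counts, so the 2.74-fold difference of the gene came from 1 row. In Gja5, the row of 3123 bases had 268 and 0 counts and the row of 3180 bases 2 and 60. In Egfl7, 1 row of 1388 bases held the difference with 518 and 55 counts, and in Mmrn1 a row of 4636 bases had 115 and 5 counts against 58 and 42 in the other row. All 4 main rows of Cd36 were lower, by 2.93-fold to 6.20-fold, and both rows of Pdpn were higher, by 2.15-fold and 7.15-fold.

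**Figure D3:**
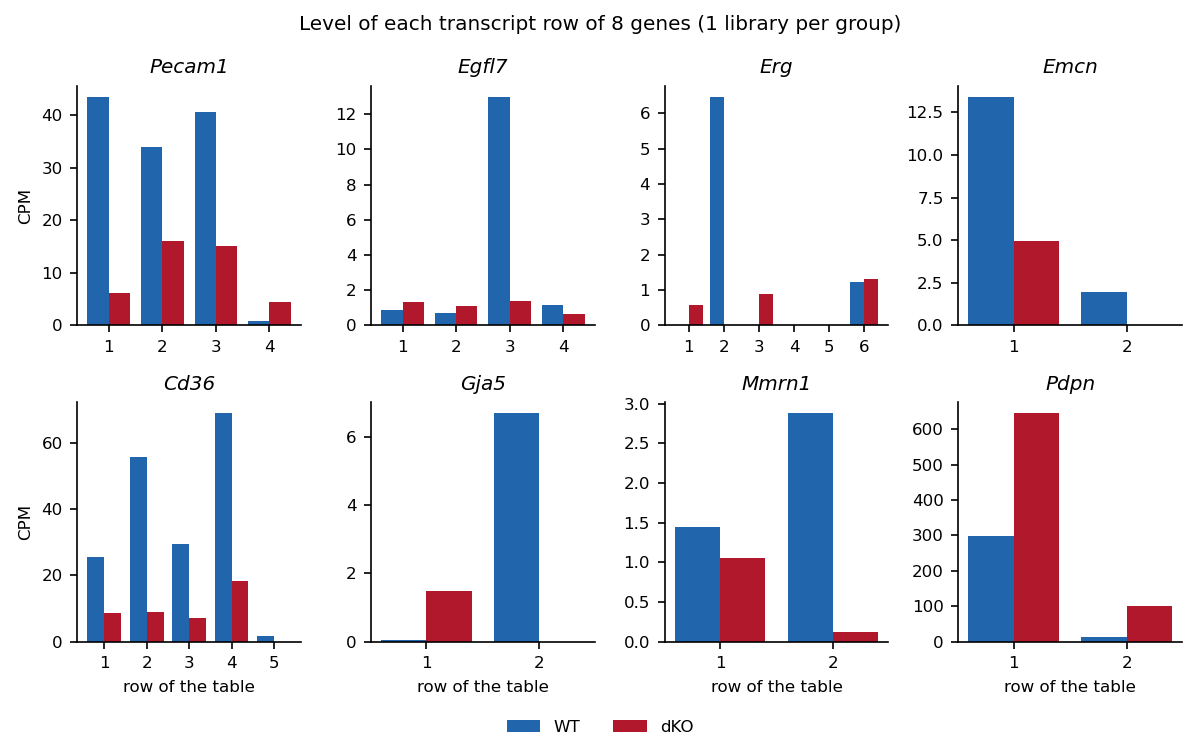
Level in CPM of each transcript row of 8 genes, in the order of the rows in the table, with 1 bar for WT and 1 for dKO. The rows of Cd36 and Pdpn all go one way, while in Erg and Gja5 the row that holds most WT counts is at 0 in dKO and another row has reads in its place.

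A further list of 38 endothelial genes outside the 37 leaned the same way but less. These 38 genes were not marked for expression in other muscle cells, so the 2 lists may differ in make-up. Of them 12 were lower by 2-fold, 1 was higher and 25 were neither, and the median log2 ratio was −0.79. The largest differences among the lower ones were in Robo4, a guidance receptor of vessel stability (5.00-fold, 4.17 to 6.04), Aplnr, the apelin receptor (4.24-fold, 3.01 to 6.08), Arhgef15 (3.98-fold, 3.14 to 5.09), Cyyr1 (3.71-fold, 2.90 to 4.79) and Mmrn2, a multimerin of the endothelial matrix (3.59-fold, 3.22 to 4.02). Robo4 has 2 rows, and its log2 ratio was −2.04 for the sum and −1.25 for the most abundant row. The higher gene of the list was Ccl21a, a lymphatic chemokine gene, with 24 counts in WT and 894 in dKO. It has near-identical copies, and summed over the 7 copies in the table the counts were 1152 and 1816, 1.58-fold higher (1.46 to 1.70).

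Markers of other cells that the gate was set against differed along with the vessel genes. Of 17 measured immune markers of an 18-gene list 16 were lower by 2-fold and 0 higher, with a median log2 ratio of −1.93. Their summed level was 214 CPM in WT and 58.0 CPM in dKO, with Lyz2 (75.0 and 31.0 CPM) and Csf1r (17.5 and 4.37 CPM) as the most abundant by the mean of both libraries. The measured marker short of the line was the B cell gene Cd79a (7.60 and 6.95 CPM). Cd3e was at 0 counts in WT, and Cx3cr1 and S100a8 were at 0 in dKO. Of 12 fibro-adipogenic progenitor markers 7 were lower and 0 higher, with a summed level of 5815 and 4613 CPM, led on that mean by Gsn (2679 and 2341 CPM) and Col3a1 (897 and 910 CPM). None of those 12 was at 0. The part of these cells in the vessel gene differences was not tested.

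Genes of mural cells, which wrap the vessels, were mostly below 0 as well. Of 10 markers 9 were below 0, 4 were lower by 2-fold and 0 higher, with a median log2 ratio of −0.50. The summed level was 2623 CPM in WT and 2721 CPM in dKO, led by Notch3 (1201 and 1741 CPM), a receptor that muscle stem cells also express, and Acta2 (555 and 423 CPM). Without Notch3, a choice made after its value was seen, the sum was 1422 and 980.2 CPM, 1.45-fold lower. The 12 stem cell markers had a median of −0.05, with 1 lower (Chrd) and 1 higher (Msc), and a sum of 7414 and 9515 CPM, led on the mean of both libraries by Sdc4 (2980 and 4872 CPM) and Heyl (933 and 900 CPM). Of 8 myofibre genes 0 were 2-fold apart, and Actn3 and Acta1 led with 346 and 344 CPM and with 234 and 163 CPM. No marker was at 0 in these 3 lists.

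**Figure D4:**
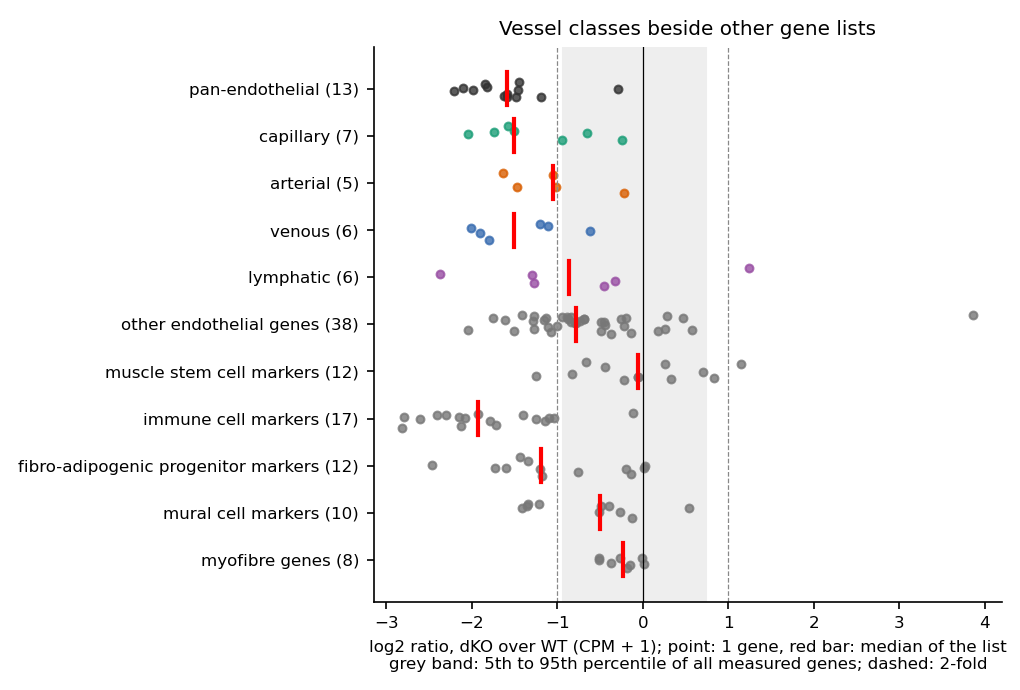
Log2 ratio (CPM + 1) of each measured gene of the 5 vessel types and 6 other lists, with a red bar at the median of each list and a grey band from the 5th to the 95th percentile of all measured genes (−0.94 to 0.74). The medians of the pan-endothelial, capillary, arterial and venous genes and of the immune and progenitor markers lie left of the band, while those of the lymphatic, other endothelial, stem cell, mural and myofibre genes lie within it.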

How the data were processed

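RNA-seq was made from freshly sorted muscle stem cells, with 1 WT and 1 dKO library grouped by the genotype label. The deposited values are whole-number read counts per transcript row with a transcript length, per the file headers. The mm10 build and the tools TopHat2 2.0.9, edgeR and bedtools are named without a role, per the submitters' processing notes. How reads were counted, on which annotation and with which strand setting is not stated in the labels or headers. On the annotation, 15 of the 37 genes overlap another gene, with which reads may be shared.

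Rows were summed per gene (36780 rows, 24532 Entrez IDs, 24462 matched to a symbol on GRCm38). IDs without a symbol held 0.314% of reads in WT and 0.401% in dKO. Library sizes were scaled with TMM in edgeR 4.0.16 (R 4.3.3), with factors of 1.09 for WT and 0.916 for dKO. A gene was called measured from 10 counts in its higher library, and a log2 ratio of CPM + 1 of at least 1 in size was called 2-fold apart. RPKM sums the counts of each row over its length. Intervals are exact conditional binomial (95%) and leave out all but counting error, because 1 library per group gives no replicate error. Reads of amplified libraries do not each stand for a molecule, so even the counting error may be larger than these intervals show. The steps were tested on simulated counts per gene with counting error only. They called 88.0% of genes set 3-fold apart, 94.0% of those set 4-fold apart and 0.0% of unchanged genes. Such counts cannot test replicate error or the split of reads between rows or copies.

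The members, lists, marks for other cells and the rule for named genes were chosen with earlier results of these data known. That rule names all members, 6 further endothelial genes with the largest log2 ratio in size among those 2-fold apart, the 2 most abundant genes of each other list, and at most 4 promoters. The red blood cell list (5 genes) had 4 measured members, 1 lower and 2 higher by 2-fold. Of the 6 adipocyte markers 2 were measured, 1 lower and 1 higher. Other genes that are no members were named after their values were seen.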

Additional observations from a re-analysis of the deposited data

How the results depend on the processing

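The direction of all 37 genes was kept under median-ratio scaling, library totals, pseudocounts of 0.1 and 5 and the most abundant row, and Reln alone changed sign with the trend on abundance and length removed. The number of genes lower by 2-fold, 28, was 27 to 31 with median-ratio scaling, library totals, a pseudocount of 0.1, the most abundant row, no minimum, a minimum of 100 counts or a 1.5-fold rule. It was 23 with the trend removed, 22 of 24 without the marked genes and 19 with a pseudocount of 5, and 5 under a 4-fold rule (0.376% of all genes). Of all measured genes 13.1% were lower under the 1.5-fold rule, 1.26% with a pseudocount of 5, 11.1% with one of 0.1, 6.99% under library totals, 6.30% with the most abundant row, 4.20% under median-ratio scaling, 4.53% with a minimum of 100 counts, 2.61% with none and 2.88% with the trend removed. The 1 higher gene became 0 under library totals, the trend removal, the 4-fold rule and without the marked genes, which leaves Pdpn out. Library totals shifted the median of all measured genes by −0.22. They moved the median of the 37 genes from −1.47 to −1.69, and it was −1.62 with a pseudocount of 0.1 and −1.03 with one of 5. The arterial median was −1.68 with a pseudocount of 0.1 and −0.85 with one of 5. The pan-endothelial median was −1.40 with a pseudocount of 5. A higher pseudocount shrinks the ratios of low genes by its construction. The cause of the other shifts was not tested. No paired analysis was possible because each group has 1 library. For the same reason no library could be left out. The fewest counts in dKO were those of Bmx (13) and Mmrn1 (47), whose folds had wide intervals.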

Other observations

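In some groups of near-identical genes, different genes held most reads in the 2 libraries, and the cause was not tested. These genes were looked at after their values were seen. The alpha globin gene Hba-a2 had 6865 counts in WT and 10 in dKO, while its copy Hba-a1 had 76 and 11070. Summed, the alpha globin counts were 6941 and 11080, 1.60-fold higher in dKO (1.55 to 1.64). In the beta globin cluster, Hbb-b1 had 3888 and 5 counts, Hbb-bs had 4 and 6071, and Hbb-b2 had 1911 and 2804. The 4 beta globin genes together had 5803 and 8880 counts, 1.53-fold higher (1.48 to 1.58). Of the Ccl21 copies, Gm1987 had 263 and 14 counts where Ccl21a had 24 and 894, and Ccl21b had 757 and 815.

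Rows of one gene could also have reads in 1 library only. Among rows with at least 50 counts in 1 library, 18.5% of the 27 rows of vessel genes with several rows had 0 counts in the other library. The share was 10.6% of 9850 rows over all genes with several rows, and 0.375% of 8266 rows of genes with 1 row. All 5 of these rows of vessel genes were at 0 in dKO and none in WT. Vessel genes were mostly lower in dKO, so their rows reached 50 counts more often through WT. The minimum thus favours rows at 0 in dKO. Neither this direction nor the share of 18.5% can be read as a trait of vessel genes. The Erg rows at 0 in WT had 23 and 36 counts in dKO, below the minimum. Over all genes with several rows, 665 rows were at 0 in dKO only and 378 in WT only. In Erg and Gja5 another row was higher in dKO, while in Cd36, Emcn and Reln no other row was. Of 10 vessel genes with at least 2 rows of at least 50 counts in 1 library, 2 had rows 2-fold apart in opposite directions. Over the whole table, 502 of 3324 such genes did. Values of a single row or of a single copy are therefore less secure here than those of the sum.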
